A study of Mus musculus with 2 samples.

Results

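Spata5, Rrp12 and Mrpl3 are 3 nuclear genes whose protein products work in making ribosomes or in the mitochondrial ribosome, and each carried at least 1 CLIP-seq peak of the RNA helicase DDX10 in both libraries of the series. They were chosen by gene symbol among genes that had a peak in these same lists, so the presence of a peak is what chose them and is not a result. Together they held 5 of the 131 distinct peaks of replicate 1 and 4 of the 96 of replicate 2, and 3 of the 155 annotated genes with a peak in either library. CLIP-seq crosslinks protein to RNA with ultraviolet light, purifies the protein with its RNA fragments and maps the fragments to the genome. Both libraries came from mouse E14 embryonic stem cells with stable expression of a Flag-tagged DDX10, grown with serum, LIF, CHIR99021 and PD0325901, and the RNA was purified on Flag beads from nuclear extracts after partial nuclease digestion. There was 1 group of 2 libraries, with no untagged or input library among those analysed here, so more DDX10 on an RNA and more of that RNA cannot be told apart. The labels name neither the promoter that drives the tagged gene nor the number of clones, and they do not say whether the replicates were separate cultures, so their spread may be technical.

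Ribosome subunits are assembled in the nucleolus and nucleus from precursor rRNA, proteins and many assembly factors, and are then exported and completed in the cytoplasm. DDX10 is the mammalian counterpart of yeast Dbp4, a helicase of the pathway that makes 18S rRNA, the RNA of the small subunit. Spata5 (AFG2A) encodes an AAA-type ATPase that strips the assembly factor RSL24D1 from the precursor of the large subunit. Rrp12 encodes a HEAT-repeat protein of precursor particles that is needed for their export from the nucleus. Mrpl3 encodes a protein of the large subunit of the mitochondrial ribosome, which is made from a nuclear gene and imported. What was measured here is tags on the RNA of these genes, not the proteins or their activity.

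Lists of genes with these roles were drawn up with earlier results of these data known. They include Spata5, Rrp12 and Mrpl3, which were chosen because they had a peak. The list counts therefore hold these genes by choice, and nothing is read from them against the share of all genes. Of the 49997 genes in RefSeq, 154 (0.308%) had a peak in either library, and the lists drawn up for these roles held at most 1 such gene each. Among 57 factors of large-subunit precursors it was Spata5, and among 66 factors of the small-subunit processome and precursors it was Rrp12. Among 83 protein genes of the mitochondrial ribosome it was Mrpl3, and among 20 assembly factors of that ribosome there was none. Nol10 and Aatf, the counterparts of the proteins that bind Dbp4 in yeast, thus had no listed peak, and neither did Spata5l1 and Cinp, which work with Spata5. With 131 and 96 peaks in all, the lists are too short to show that a gene without a peak lacked bound RNA. The pluripotency genes Pou5f1, Sox2, Nanog, Klf4, Esrrb and Zfp42 also had 0 peaks, and a peak list without expression values cannot check the labelled cell type.

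Heights are the authors' values and count overlapping tags at the top of a peak, with no scaling for depth. The total number of reads is unknown. The heights of all distinct peaks added up to 3491 tags in replicate 1 and 2687 in replicate 2, or 1258 and 687 tags once the precursor rRNA gene Rn45s was left out. The median height was 5 tags in each list and the lowest was 3. The peaks of the 3 genes added up to 56 tags in replicate 1 (1.60% of the summed height) and 31 tags in replicate 2 (1.15%), and the 2 shares had a mean of 1.38% ± 0.318 (SD, n = 2). Against the sum without Rn45s these shares were 4.45% and 4.51%, a mean of 4.48% ± 0.0430 (SD, n = 2). These shares were near equal, while the genes differed in opposite directions between the libraries. Spata5 went from 40 tags to 6, Mrpl3 from 12 to 21, and Rrp12 stood at 4 in both.

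**Figure D1:**
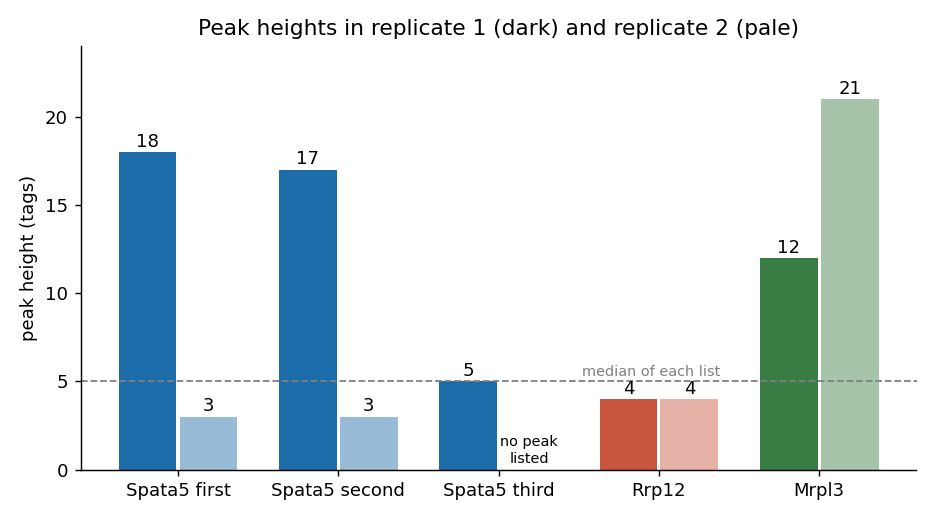
Peak height in tags (vertical axis) at each peak of Spata5, Rrp12 and Mrpl3, with replicate 1 as dark bars and replicate 2 as pale bars; the dashed line is the median height of 5 tags in either list. Both shared Spata5 peaks stood at 18 and 17 tags in replicate 1 and at 3 in replicate 2, whereas Mrpl3 stood at 12 and 21.

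Spata5 had a cluster of peaks in 1 intron, and it was tall in replicate 1 and low in replicate 2. Each of its peaks was on chromosome 3 (mm10) and on the plus strand, which is the strand of the gene, in intron 14 of 15 of transcript ENSMUST00000108112.9. In replicate 1 the first peak spanned 37481372 to 37481383 with a height of 18 tags. The second spanned 37481573 to 37481585 with a height of 17 tags. The third spanned 37481644 to 37481662 with a height of 5 tags. The first and second peaks were thus near equal, and together they held 87.5% of the 40 tags of the cluster. Replicate 2 had the first peak at 37481361 to 37481383 and the second at 37481567 to 37481591, each with a height of 3 tags, the lowest height in either list. They too were equal to each other, far below their partners in replicate 1, and the third peak had no counterpart. The bases between the last peak of replicate 2 and the third peak of replicate 1 numbered 52.

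The positions of the Spata5 peaks repeated more closely than their heights. The first peak ended at the same base in both libraries, and each peak of replicate 1 that had a partner lay wholly inside it. The starts of the first and second peaks were 201 bp apart in replicate 1 and 206 bp in replicate 2. The peaks were narrower where they were taller: 12 and 13 bp in replicate 1 against 23 and 25 bp in replicate 2. Tall peaks were also the narrower ones across the lists. Outside Rn45s the 24 peaks of 10 tags or more in replicate 1 had a median width of 14.5 bp and the 36 peaks of 3 tags one of 20 bp. In replicate 2 these medians were 17 bp for 21 peaks and 20 bp for 27 peaks. The third peak of replicate 1, at 5 tags, was 19 bp wide. The cluster covered 291 bp in replicate 1, of which 44 bp were in peaks, and 231 bp in replicate 2, of which 48 bp were in peaks.

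**Figure D2:**
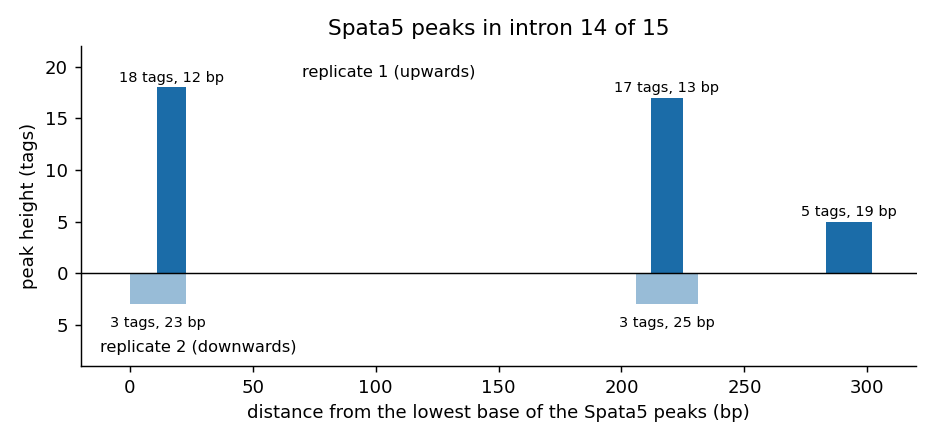
Bounds and heights of the Spata5 peaks in intron 14 of 15; the horizontal axis is the distance in bp from the lowest base of any of these peaks and the vertical axis is height in tags, drawn upwards for replicate 1 and downwards for replicate 2. The 12 and 13 bp peaks of replicate 1 lie inside the 23 and 25 bp peaks of replicate 2, and the third peak, 19 bp wide, has no partner.

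Several peaks in 1 gene were uncommon: 12 of 110 annotated genes of replicate 1 had 2 or more (10.9%) and 5 of 84 of replicate 2 (5.95%). Spata5 was in both counts, with Cdk8, Filip1l, Ica1 and Rn45s, the other genes that had 2 or more peaks in each library. In replicate 1, 4 genes had at least 3 peaks, namely Rn45s, Cdk8, Lars2 and Spata5. Whether the Spata5 intron or the other protein-coding genes named here hold rRNA-like sequence was not tested, since no genome sequence was used. The RefSeq table listed no other gene over the Spata5 peaks and no snoRNA, guide RNA, snRNA, rRNA, tRNA or microRNA gene within 513443 bp of them.

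The intron number refers to transcript ENSMUST00000108112.9. The authors' annotation gave the nearest transcript start as that of ENSMUST00000200093.1, which begins at 37493188, so the Spata5 peaks lay 11526 to 11805 bp before it and outside it. In RefSeq (GRCm38.p6, the same build as mm10) Spata5 runs from 37419903 to 37579096, and the cluster began 61469 bp into the gene in replicate 1, which is 38.6% of its length. The last intron but 1 of ENSMUST00000108112.9 is thus not near the end of the gene as RefSeq draws it.

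Rrp12 had 1 low peak, the same in both libraries. It spanned 41886527 to 41886545 on the minus strand of chromosome 19, the strand of the gene, with a width of 19 bp and a height of 4 tags in replicate 1 and 4 tags in replicate 2. The authors' annotation placed it in intron 8 of 33 of transcript ENSMUST00000038677.4. It lay 9608 bp into the RefSeq gene, which is 26.2% of the 36671 bp from 41859483 to 41896153. Its bounds were identical, and so were those of 16 of the 44 shared peaks. A height of 4 was under the median of each list, and 73 peaks of replicate 1 and 52 of replicate 2 were taller.

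The Rrp12 position was written on 2 lines in each file, under 2 gene IDs. Positions listed that way numbered 2 of 131 in replicate 1 (1.53%). One line named Rrp12 itself, with a peak caller's p-value of 1.85e-04 in replicate 1 and 1.14e-04 in replicate 2. The other named Snora19, a box H/ACA snoRNA gene, with a p-value of 1.00e-100 in both. Bounds and height were the same on the paired lines, so the p-values differed by gene ID and not by peak. RefSeq places Snora19 on chromosome 19 at 60774330 to 60774385, 18887785 bp from the peak. In replicate 1 the same ID was written for 4 peaks, all on the minus strand of chromosome 19, which were spread over 17572102 bp and annotated to Rrp12, Vti1a, Sorcs3 and Emx2os. The line that names Snora19 was therefore not counted as a snoRNA peak here, and the position was counted a single time.

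Mrpl3 had the peak whose height was above the median of its list in both libraries, and the only one of the 3 genes that was taller in replicate 2. It lay on the plus strand of chromosome 9, the strand of the gene, at 105064801 to 105064816 with a height of 12 tags in replicate 1 and at 105064801 to 105064815 with a height of 21 tags in replicate 2. The bounds thus shared their first base and differed by 1 bp at the other end. Outside Rn45s it ranked 15th of 123 peaks by height in replicate 1 and 8th of 87 in replicate 2. The mean height was 16.5 tags ± 6.36 (SD, n = 2).

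The authors' annotation put the Mrpl3 peak in the promoter class, at distance 0 from a transcript start, and this start is an internal one. Transcript ENSMUST00000215577.1 begins at 105064805, and the peak held the 4 bases before that start and, in replicate 1, 12 bases from it on. In RefSeq the gene runs from 105053268 to 105077466, so the peak began 11533 bp after its start, at 47.7% of its length. In the RefSeq gene it is thus an internal position, and the promoter of the gene itself lies elsewhere. The 250 bases before the RefSeq start, chr9:105053018-105053267 on the plus strand (RefSeq, GRCm38.p6), are shown because the class name could be read as pointing to them, while 0 peaks lay there:

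Mrpl3, before the RefSeq start: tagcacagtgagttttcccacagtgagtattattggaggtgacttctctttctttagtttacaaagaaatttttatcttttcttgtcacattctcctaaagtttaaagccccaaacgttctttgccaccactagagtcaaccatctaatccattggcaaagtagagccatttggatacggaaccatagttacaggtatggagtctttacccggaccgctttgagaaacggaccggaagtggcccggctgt

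A RefSeq start far from the peak was common in this class. Among promoter-class peaks whose gene was in RefSeq, 9 of 21 in replicate 1 (42.9%) and 9 of 13 in replicate 2 (69.2%) lay more than 1000 bp from the RefSeq start of their gene, and Mrpl3 was in both counts. These counts use distance alone, so they do not show whether a peak lay inside its gene. Some peaks were only just past the limit, such as Papolg at 1045 bp. Whether the Mrpl3 peak falls in an exon or an intron of the longer transcripts cannot be read from the class, because the promoter class replaces it. RNA from the internal start and RNA from the full-length gene cannot be told apart at this position. The sequences under the peaks of the 3 genes were not analysed here.

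**Figure D3:**
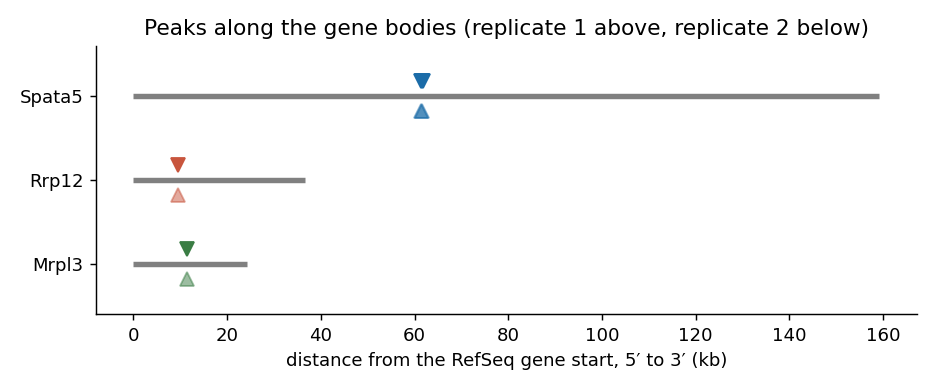
Position of each peak along its RefSeq gene, in kb from the gene start in the direction of transcription (grey bars are whole genes, downward marks replicate 1, upward marks replicate 2; the Spata5 marks overlap each other). The peaks lie at 61.5 kb in Spata5, 9.61 kb in Rrp12 and 11.5 kb in Mrpl3, none of them at the start of the gene.

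Strand, class and recurrence of the peaks of the 3 genes are set here beside those of all peaks. All 5 and 4 peaks lay on the strand of their gene, as did 93.7% of peaks outside the distal intergenic class in replicate 1 and 89.5% in replicate 2, so this share is near the background. Intronic peaks made up 4 of 5 and 3 of 4, where the lists held 61.8% and 58.3%. The Spata5 cluster gave 3 and 2 of these and Rrp12 gave 1 in each library, while the Mrpl3 peak was in the promoter class. No other RefSeq gene overlapped any peak of the 3 genes, and how usual this is among all peaks was not counted. Of the 5 peaks of replicate 1, 4 had a partner in replicate 2, and of the 4 of replicate 2 all had one, where 33.6% of all peaks of replicate 1 and 45.8% of replicate 2 did. Since the genes were chosen with these lists in view, nothing is read from the higher share.

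Height ratios between the libraries differed among the 3 genes. The ratio of replicate 2 to replicate 1 was 0.167 at the first Spata5 peak (95% exact interval from the binomial share of tags, 0.0314 to 0.571) and 0.176 at the second (0.0331 to 0.610). It was 1.75 at Mrpl3 (0.822 to 3.90) and 1 at Rrp12 (0.186 to 5.37). These intervals cover counting error only, since copies made by PCR are not independent molecules, and they compare 2 libraries and not conditions. The Spata5 intervals lie below 1, as did those of 10 of the 44 shared peaks (22.7%), and below the Mrpl3 interval. The Mrpl3 and Rrp12 intervals include 1 for these unscaled heights. Over the 44 shared peaks the median ratio was 0.805, and only 1 peak had a lower ratio than the Spata5 pair, at 0.156. Both Spata5 peaks of replicate 2 stood at 3 tags, the lowest height listed, so their ratios could not have been lower. Several other shared peaks had ratios inside both Spata5 intervals, among them Cdk8 (0.198), Snord22 (0.200), Fam89a (0.286) and Eif4g2 (0.318).

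Scaling by either sum multiplies all ratios by the same factor, so the order of the genes could not change. The side of 1 on which an interval lay did change. Per summed height of each list, the ratios became 0.217 and 0.229 at Spata5, 1.30 at Rrp12 and 2.27 at Mrpl3. Per summed height without Rn45s they were 0.305 and 0.323 at Spata5, 1.83 at Rrp12 and 3.20 at Mrpl3. The Mrpl3 interval, which included 1 unscaled, lay above 1 at 1.07 to 5.07 and at 1.51 to 7.14. The Spata5 intervals lay below 1 on the first scale (upper limits 0.742 and 0.793) and included 1 on the second (upper limits 1.05 and 1.12). On the first scale 6 of the 44 shared peaks had an interval below 1 and 8 had one above it. On the second scale these counts were 3 and 13. Since the number of reads is unknown, none of these scales can be preferred. A common factor cannot close the gap between the Spata5 and Mrpl3 intervals, so its presence on each scale adds no support. The Rrp12 interval included 1 on each.

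**Figure D4:**
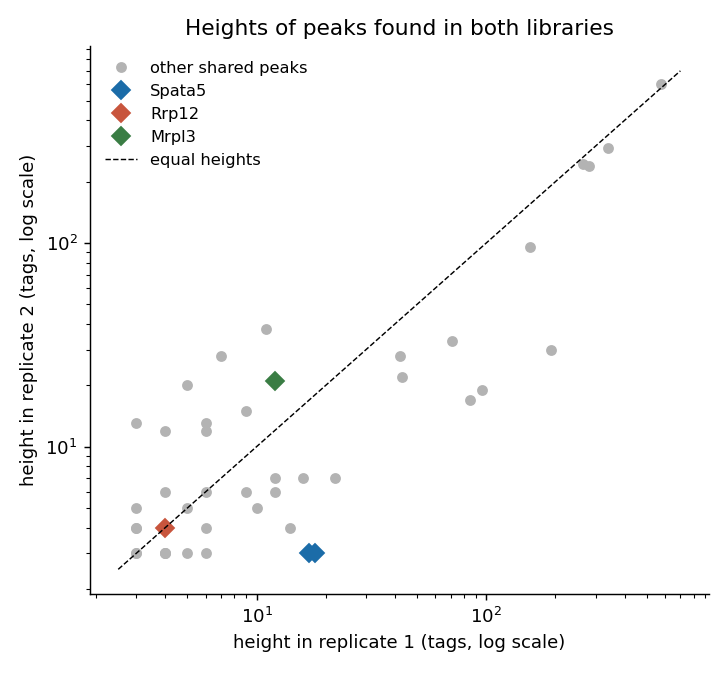
Height in replicate 2 against height in replicate 1 for the 44 peaks found in both libraries, in tags on log axes; grey points are other genes (some overlap), diamonds are Spata5, Rrp12 and Mrpl3, and the dashed line marks equal heights. Spata5 lies below the line at 18 and 3 and at 17 and 3, Rrp12 on it at 4 and 4, and Mrpl3 above it at 12 and 21.

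The peak caller also wrote a value PH0, rounded to 0.01, which is read here as an expected height from its name. Within a library all Spata5 peaks had the same PH0. It was 0.01 tags for Spata5, 0.02 for Mrpl3 and 0.00 for Rrp12 in replicate 1, and 0.00, 0.03 and 0.00 in replicate 2. A PH0 of 0.00 was usual, at 63.4% of peaks in replicate 1 and 67.7% in replicate 2, and allows no ratio beyond a lower bound. The Mrpl3 height was 600 times PH0 in replicate 1 and 700 times in replicate 2, and rounding alone allows 480 to 800 and 600 to 840. These ranges overlap, so the Mrpl3 values relative to PH0 cannot be ordered between the libraries. The Spata5 heights of replicate 1 were 1800, 1700 and 500 times PH0, and rounding allows 1200 to 3600, 1133 to 3400 and 333 to 1000. In replicate 2 they were at least 600 times PH0, taking 0.005 as the largest value that is written as 0.00. At Rrp12 the height was at least 800 times PH0 in both. Such ratios rest on an expected height close to 0 and are not measures of enrichment over a control.

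The p-values of the peak caller differed with height at Spata5 and were alike at Mrpl3. At the first and second Spata5 peaks they were 1.00e-100 in replicate 1 and 2.21e-02 in replicate 2, and at the third 4.54e-05. The value 1.00e-100 was the smallest written, and 31 of the 131 peaks of replicate 1 and 26 of the 96 of replicate 2 had it. At Mrpl3 the p-values were 3.52e-10 and 3.06e-10. The taller Spata5 peaks thus had the smaller value, and Mrpl3 had like values at 12 and 21 tags. These values are from the authors' peak caller, and whether they are corrected for the number of peaks is not stated in the labels or files.

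Other shared peaks of the same class with the nearest pair of heights were sought by distance on the log2 scale over the 2 libraries. For both shared Spata5 peaks these were intronic peaks at Fam89a (heights 14 and 4), Peak1 (10 and 5) and Clasp2 (12 and 6), at log2 distances of 0.55, 1.12 and 1.16 from the first Spata5 peak, among 23 candidates. For Rrp12 they were Nostrin (4 and 3), Prickle1 (4 and 3) and Prcp (3 and 4), all at a distance of 0.42 among 24 candidates, and no other shared peak stood at 4 in both. For Mrpl3 the nearest of 9 candidates was Eif4g2 (22 and 7) at 1.81, followed by Papolg (5 and 5) at 2.43 and Snord22 (85 and 17) at 2.84. A distance of 1 is a 2-fold difference in 1 library, so no promoter-class peak was close to Mrpl3 in height. The candidates included the much taller Rn45s peaks, and other classes were not searched. Outside the class, the exon peak at N4bp2 stood at 9 and 15. Over 2 libraries such likeness is a description only.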

How the data were processed

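Each library was deposited as its own annotated list of peaks. Reads were aligned to mm10, and BWA, ChIPseeker and deepTools were used in roles and versions not stated, per the submitters' processing notes; the name of the peak caller is not given in the sources used here. Per the file contents, the signal value deposited by the authors is peak height in whole tags, equal to the PH field of the peak name in every line. Width and distance to a transcript start are in bp. PH0, taken as an expected height from its name, and a p-value were read from the peak names that the authors deposited. The lists held 133 and 98 lines, which left 131 and 96 distinct positions (chromosome, start, end, strand).

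Members and lists were chosen with earlier results of these data known, so no test was made of them. An overlap of 1 bp or more on 1 strand made a peak shared. Ratios of heights carry exact (Clopper-Pearson) 95% intervals. Peaks of a gene were joined into a cluster where no gap exceeded 1000 bp. All peaks of the 3 genes are named, with list genes that had a peak and, for each shared peak, up to 3 others of its class nearest in height. Gene bodies, names and the promoter sequence came from RefSeq tables (GRCm38.p6, 49997 genes), which give no exons. Alternatives covered repeated lines, gene IDs, height minimums, overlap rules, denominators, scaling and joining. Python 3.11.15, pandas 2.3.3 and SciPy 1.17.1 were used, and peak matching was tested on simulated data.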

Additional observations from a re-analysis of the deposited data

How the results depend on the processing

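The point ratios of Spata5 lay below 1 and those of Mrpl3 above 1 with both sums as scale, but the Spata5 intervals included 1 without Rn45s and the Mrpl3 interval excluded 1 on both. Over PH0 the Mrpl3 ratio was 1.17, which rounding of PH0 leaves without a direction, and no ratio could be had for Spata5 and Rrp12. Counts depended on height and on bounds. With peaks at or above the median height, or of 5 tags or more, replicate 2 kept 1 peak of the 3 genes (Mrpl3) in place of 4, and replicate 1 kept 4 of 5. Counting every deposited line gave 6 and 5. With identical bounds 1 peak (Rrp12) was found in both libraries in place of 4, while an overlap covering 50% of the longer peak, a gap of at most 50 bp and either strand gave 4. The mean share of summed height was 4.48% without Rn45s and 3.76% over intronic peaks alone, against 1.38%, and 1.15% to 1.60% with 1 replicate left out. The intronic share was 5.06% in replicate 1 and 2.46% in replicate 2. Joining peaks within 100 bp split the Spata5 cluster into 2 in each replicate in place of 1. No paired analysis was possible because the labels give 1 group. Heights of 3 to 5 tags limit what the lists can show, since a peak just under 3 tags would not be listed.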
